A study of Mus musculus with 480 samples.

Results

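Cyp2f2, Cyp2a5, Cyp2b10, Cyp2s1, Cyp4b1 and Por were followed in 480 single tdTomato+ mouse lung epithelial cells, as 5 cytochrome P450 genes and the gene of their shared electron donor. They are 6 of the 53379 genes in the count table and were picked by name and matched by Ensembl ID. Cyp2f2 was highest in club cells, at 32264 CPM (a gene's reads scaled to all gene-assigned reads of a group of cells summed), and Por was highest there too, at 816 CPM. Among the ciliated and club cells of the Scgb1a1-TD line and the alveolar type 2 (AT2) cells of the Sftpc-TD line, Cyp2s1, Cyp2a5 and Cyp2b10 were highest in ciliated cells. Cyp4b1 was high in both airway types, and no member was highest in AT2 cells.

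Cytochrome P450 enzymes are heme proteins of the endoplasmic reticulum that insert oxygen into lipids, hormones and foreign chemicals. Por, cytochrome P450 oxidoreductase, passes electrons from NADPH to all microsomal P450 enzymes. In the mouse lung the club cell, a secretory cell of the bronchioles that makes Scgb1a1, is known as the main P450-bearing cell, and its Cyp2f2 turns naphthalene into products that injure the cell itself. Ciliated cells move mucus, AT2 cells make surfactant and its protein Sftpc, and bronchioalveolar stem cells (BASCs) at the junction of bronchioles and alveoli carry both Scgb1a1 and Sftpc.

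The cells came from 3 lines of mice, 160 from each, and the submitters gave each cell a sub-type. BASCs-Tracer mice carry the drivers Sftpc-DreER and Scgba1a1-CreER with the reporter R26-RSR-LSL-tdtomato, which needs both recombinases. Scgb1a1-TD mice carry Scgba1a1-CreER with R26-tdtomato, and Sftpc-TD mice carry Sftpc-DreER with R26-RSR-tdtomato, so that each of these needs 1 recombinase. BASCs-Tracer gave 15 club cells, 6 AT2 cells, 1 ciliated cell and otherwise BASCs (86.3% of its cells, the Tracer BASCs below). Scgb1a1-TD gave 38 BASCs, 24 ciliated cells, 97 club cells and 1 AT2 cell. Sftpc-TD gave 11 BASCs and otherwise AT2 cells (93.1%). Unless another line is named, ciliated and club cells are those of Scgb1a1-TD and AT2 cells those of Sftpc-TD. The labels name no animal, age, sex or tamoxifen schedule, so each line with its sub-type is 1 sample. No test was possible, and differences are described by their size, by the spread over cells and by the range over pairs of plates. The sources used here do not give how the sub-types were assigned, so a part of any member in that choice was not tested.

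Cells held 3379 to 3781974 reads, with a median of 1000465. The pooled markers of club, AT2 and ciliated cells fitted the labels. The 8 club markers summed to 292907 CPM in Scgb1a1-TD club cells and 1332 CPM in Sftpc-TD AT2 cells. The 8 AT2 markers summed to 27397 and 315658 CPM in the same groups. The 8 ciliated markers summed to 8860 CPM in ciliated cells and at most 103.3 CPM in the other groups of 5 or more cells. In BASCs the club markers summed to 13719 CPM in the Tracer, 3666 CPM in Scgb1a1-TD and 8523 CPM in Sftpc-TD. Tracer AT2 cells had 3969 CPM, so the club markers did not separate the Scgb1a1-TD BASCs from them. The AT2 markers summed to 396836 CPM in Scgb1a1-TD BASCs, above the Sftpc-TD AT2 cells. Basal markers Krt5, Krt14, Trp63 and Ngfr were all at 0 reads in ciliated and club cells and summed to at most 8.20 CPM in the 8 groups, in Tracer BASCs, where 1 cell had 1125 CPM. In the 8 groups, 4 endothelial markers summed to at most 176 CPM, 5 leukocyte markers to 133.5, 4 mesenchymal markers to 40.03, 4 neuroendocrine markers to 5.33 and 3 erythroid markers to 4.16 CPM. Line and plate ran together in part: plate 2 held cells of BASCs-Tracer and Scgb1a1-TD, plate 4 cells of Scgb1a1-TD and Sftpc-TD, and the other plates 1 line each. Sex-linked expression set Sftpc-TD apart. Ddx3y, a Y-linked gene, was at 0 and 0.0416 CPM in the BASCs and AT2 cells of Sftpc-TD, against 54.8 to 97.7 CPM in the other 6 groups. Xist, an X-linked gene, was at 99.9 and 218 CPM in the BASCs and AT2 cells of Sftpc-TD, against 0.895 to 19.5 CPM in the other 6 groups. In any pair of Sftpc-TD with another line, sub-type, line, animal and sex cannot be told apart. The following cells were among those that stood apart. On plate 3, 2 ciliated cells had 213332 and 158993 CPM of Scgb1a1. On plates 4 and 5, 4 AT2 cells of Sftpc-TD had 16120 to 31416 CPM of 6 alveolar type 1 (AT1) markers. The highest AT2 marker sum in a Scgb1a1-TD club cell was 220557 CPM. The highest club marker sum was 130015 CPM in a Sftpc-TD BASC and 50156 CPM in a Sftpc-TD AT2 cell. In Tracer BASCs the AT1 markers reached 16236 CPM in 1 cell.

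On GRCm38, 4 of the members lie in 1 stretch of chromosome 7: Cyp2s1 (ENSMUSG00000040703, chr7:25802475-25816913, minus strand), Cyp2b10 (ENSMUSG00000030483, chr7:25897620-25926624, plus strand), Cyp2a5 (ENSMUSG00000005547, chr7:26835305-26843548, plus strand) and Cyp2f2 (ENSMUSG00000052974, chr7:27119909-27133660, plus strand). Cyp4b1 (ENSMUSG00000028713) is at chr4:115624725-115647723 on the minus strand and Por (ENSMUSG00000005514) at chr5:135670033-135735326 on the plus strand. The 1331186 bp from Cyp2s1 to Cyp2f2 hold 17 protein-coding genes, 12 of them Cyp2 genes. Of the 17 genes, 6 reached 5 CPM in ciliated cells, 4 in club cells of Scgb1a1-TD, and 2 each in Tracer BASCs and Sftpc-TD AT2 cells.

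The neighbouring Cyp2 genes differed in the cell type they favoured, so the 250 bases before their RefSeq start sites are shown (GRCm38.p6, 5′ to 3′ on the gene's strand), with matches to the 6 searched motifs in capitals.
Cyp2s1: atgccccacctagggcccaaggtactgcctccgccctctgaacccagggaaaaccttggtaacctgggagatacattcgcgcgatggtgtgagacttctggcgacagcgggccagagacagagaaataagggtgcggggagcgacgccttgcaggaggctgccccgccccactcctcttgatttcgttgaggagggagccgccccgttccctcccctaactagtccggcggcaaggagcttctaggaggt
Cyp2b10: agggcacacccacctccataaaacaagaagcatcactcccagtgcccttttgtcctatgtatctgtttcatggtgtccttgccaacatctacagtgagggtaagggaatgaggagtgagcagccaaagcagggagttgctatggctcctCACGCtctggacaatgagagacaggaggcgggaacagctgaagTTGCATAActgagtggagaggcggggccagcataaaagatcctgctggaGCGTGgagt
Cyp2a5: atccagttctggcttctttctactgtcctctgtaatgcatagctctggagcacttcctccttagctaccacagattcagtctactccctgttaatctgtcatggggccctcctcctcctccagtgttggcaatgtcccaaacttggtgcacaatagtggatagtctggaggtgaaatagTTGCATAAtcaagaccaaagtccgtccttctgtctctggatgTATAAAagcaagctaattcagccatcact
Cyp2f2: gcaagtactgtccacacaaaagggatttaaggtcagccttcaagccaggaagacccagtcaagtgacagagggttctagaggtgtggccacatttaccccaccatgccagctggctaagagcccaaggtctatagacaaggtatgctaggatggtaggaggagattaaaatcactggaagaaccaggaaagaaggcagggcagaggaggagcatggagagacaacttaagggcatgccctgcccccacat
The windows are chr7:25816526-25816775 (Cyp2s1, minus strand), chr7:25897408-25897657 (Cyp2b10), chr7:26835089-26835338 (Cyp2a5) and chr7:27119705-27119954 (Cyp2f2). The ciliated-biased Cyp2s1 had 15 CpG dinucleotides and 62% GC, against a median of 6 CpG and 52% GC over 27018 promoter windows of the same length. The club-biased Cyp2f2 had 0 CpG and 51.6% GC. Cyp2a5 and Cyp2b10, like Cyp2s1 higher in ciliated than in club cells, had fewer CpG than that median. Cyp2a5 had 1 CpG and 46.4% GC, and Cyp2b10 4 CpG and 52.8% GC. Both strands were searched for a TATA box (TATAAA, in 13% of all windows), a C/EBP-type site (TTGCNNAA, 9.56%), a xenobiotic response element core (GCGTG, 28.2%), a forkhead site (TGTTTAC, 3.09%), an NKX2-1 site (CTCAAG, 13.6%) and an X-box part (GTTGCC, 10.5%). Cyp2a5 held TATAAA 29 bases and TTGCNNAA 71 bases before its start. Cyp2b10 held TTGCNNAA at 58 bases and GCGTG at 9 bases and, on the other strand, further up. The Cyp2s1 and Cyp2f2 windows held none of the 6. The unprinted Por window (chr5:135688895-135689144) had 21 CpG, 3 matches to GCGTG and 1 to CTCAAG, and that of Cyp4b1 had 3 CpG and no match.

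**Figure D1:**
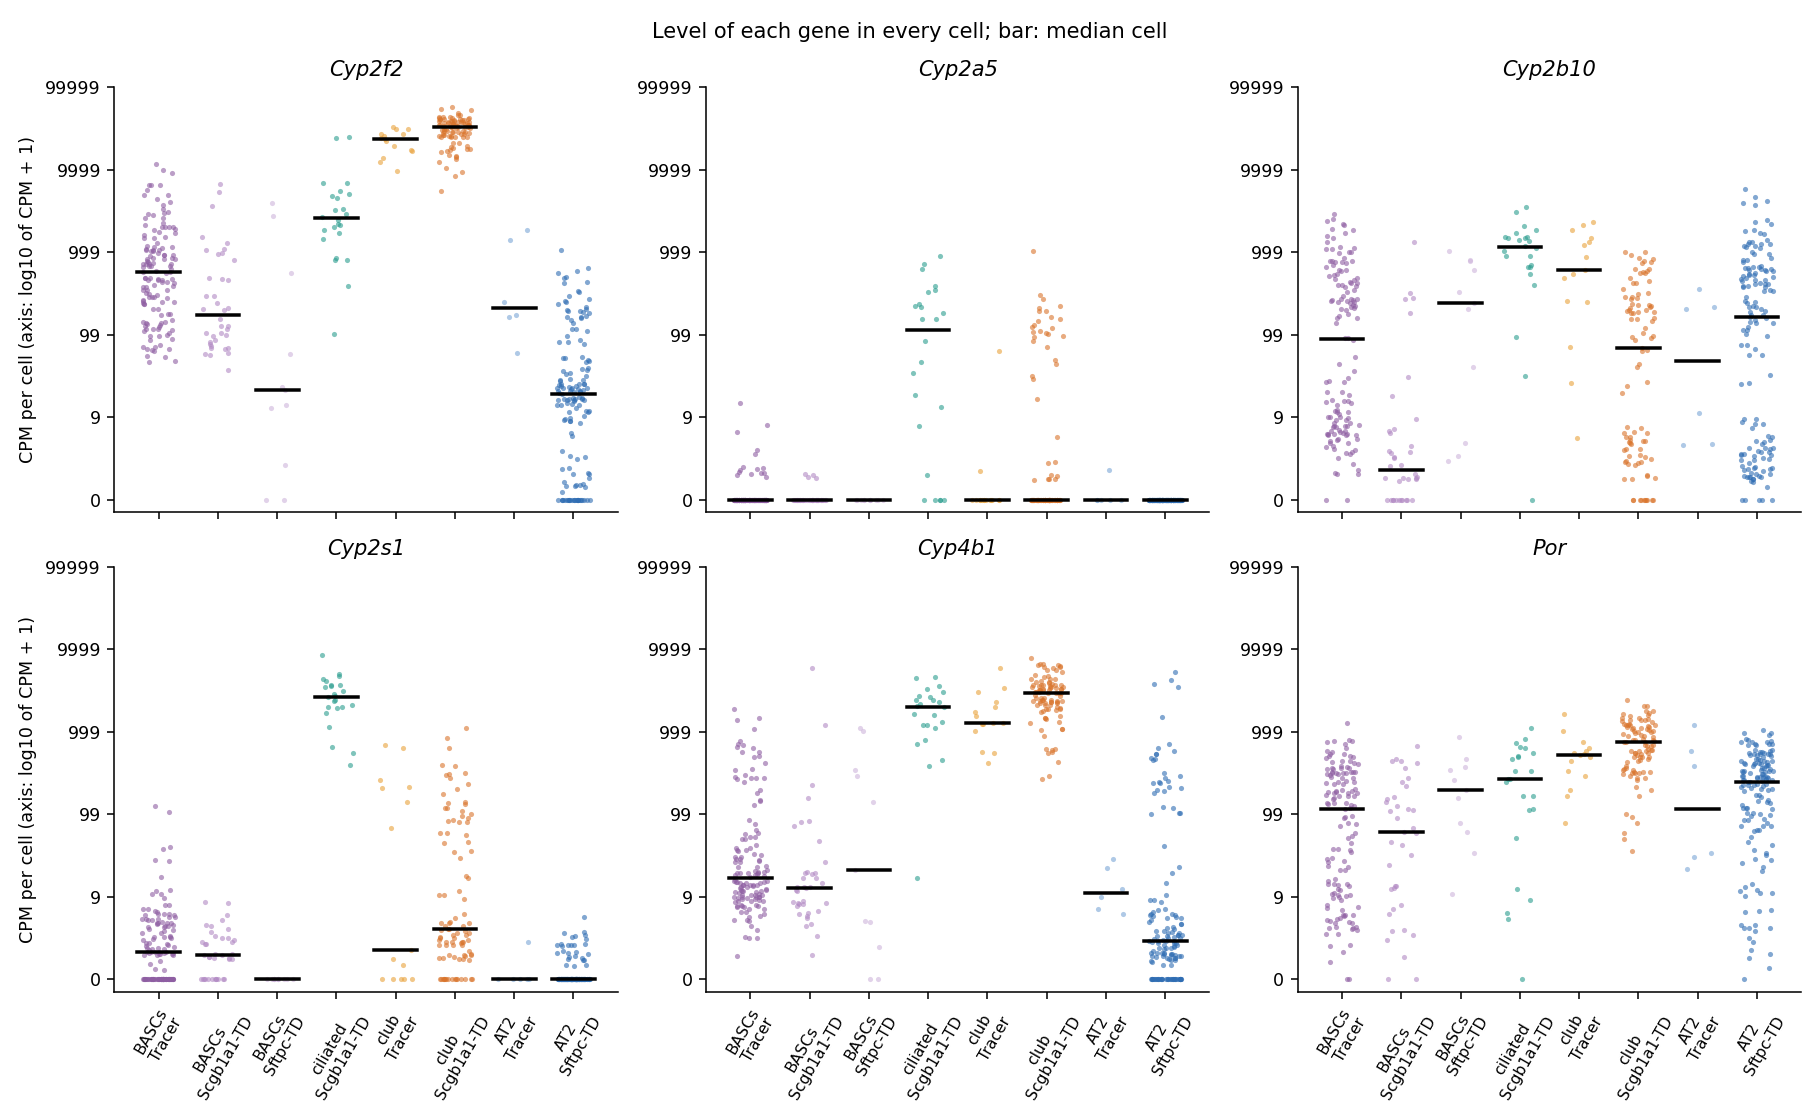
Level of each gene in every cell, as CPM on a log10 axis of CPM + 1, for the 8 groups of 5 or more cells; each point is a cell and each bar the median cell. Cyp2f2 separates club cells from AT2 cells without overlap, Cyp2s1 is highest in ciliated cells, and Cyp2b10 spreads from under 5 CPM to over 1000 CPM within every group but the Tracer AT2 cells.

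Cyp2f2 was the most abundant member by far and was graded across the epithelium. In ciliated cells it ran over 101.9, 2594 and 24974 CPM (lowest, median and highest cell), in Scgb1a1-TD club cells over 5549, 32895 and 58296 CPM, and in Sftpc-TD AT2 cells over 0, 18.4 and 1062 CPM. All 97 club cells lay above the highest AT2 cell, and 20 of 24 ciliated cells lay below the lowest club cell. Pooled, ciliated cells had 5081 CPM (exact 95% Poisson interval 5051 to 5111), club cells 32264 CPM (32228 to 32300) and AT2 cells 69.3 CPM (68.1 to 70.4), intervals that cover counting error only and are far narrower than the spread over cells. The log2 ratio was -2.67 for ciliated over club cells (range over pairs of plates -4.06 to -2.13) and 8.84 for club over AT2 cells (8.58 to 8.97). Both ranges stayed on 1 side of zero. The antisense gene Gm15883 overlaps Cyp2f2, and 9% of the 50-base stretches of Cyp2f2 occur in other transcripts.

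BASCs of all 3 lines stood between club cells and the AT2 cells of Sftpc-TD in Cyp2f2. Tracer BASCs ran over 46.01, 573 and 11778 CPM, BASCs of Scgb1a1-TD over 36.5, 177 and 6714 CPM, and the 11 BASCs of Sftpc-TD over 0, 20.3 and 3971 CPM. In both lines with club cells, no BASC reached the median club cell. The medians of the 3 lines' BASCs thus spread widely, and that of the Sftpc-TD BASCs was close to the 18.4 CPM of that line's AT2 cells. The 6 Tracer AT2 cells had 558 CPM pooled and a median of 213 CPM. That pool lay above the 231 CPM of the Sftpc-TD BASCs, and that median above the one of the Scgb1a1-TD BASCs. The log2 ratio of pooled levels of BASCs over club cells was -5.38 within Scgb1a1-TD and -4.22 within BASCs-Tracer, where 98.6% of the BASCs lay below the lowest of the 15 club cells (9672 CPM). The BASC with 11778 CPM, which held 25.1% of the Tracer BASCs' Cyp2f2 reads, had only 590 CPM of Scgb1a1.

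The ciliated level of Cyp2f2 rested in part on a pair of cells. The 2 cells rich in Scgb1a1 had 24499 and 24974 CPM of Cyp2f2, with Foxj1, the master factor of motile cilia, at 0 and 115.3 CPM and the 8 ciliated markers at 2264 and 6606 CPM in sum, and held 48.8% of the ciliated Cyp2f2 reads. Without them ciliated cells had 2890.5 CPM and a median of 2357 CPM, and their highest cell had 6950 CPM. The part of Scgb1a1-bearing material in the 2 cells' values was not tested. Every other ciliated cell still lay above the AT2 pool of 69.3 CPM.

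Cyp4b1, which hydroxylates fatty acids and activates furan-type lung toxins, was high in both airway cell types. It ran over 15.98, 2015 and 4630 CPM in ciliated cells, over 266, 2907 and 7816 CPM in Scgb1a1-TD club cells, and over 0, 1.91 and 5281 CPM in Sftpc-TD AT2 cells. Ciliated and club cells overlapped: only 1 of 24 ciliated cells lay below the lowest club cell and none above the highest. The pooled levels of 1936.5 CPM in ciliated and 3102 CPM in club cells differed by a log2 ratio of -0.68, with pairs of plates from -1.48 to 0.13. The ratio passed 2-fold, at -1.44, under median-of-ratios scaling.

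In BASCs, Cyp4b1 was far below club cells. The median was 15.8 CPM in Tracer BASCs (0.928 to 1873 CPM), 11.8 CPM in Scgb1a1-TD BASCs (0.948 to 5936 CPM) and 19.8 CPM in Sftpc-TD BASCs (0 to 1096 CPM). Of the BASCs, 36 of 38 in Scgb1a1-TD and 84.8% in the Tracer lay below the lowest Scgb1a1-TD club cell. The pooled log2 ratio to those club cells was -3.91 in Scgb1a1-TD BASCs, where 1 cell held 80.6% of the Cyp4b1 reads, and -4.66 in Tracer BASCs. Without that cell the first was -6.20. Within the Tracer, BASCs over club cells gave -4.36, and -3.67 without the club cell that held 51.8% of its group's Cyp4b1 reads.

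The Cyp4b1 level of the Sftpc-TD AT2 cells came from few cells. The pool had 171 CPM, and the 4 cells rich in AT1 markers were its 4 highest, at 5281, 4175, 3779 and 3521 CPM. They held 64.6% of the Cyp4b1 reads and 2.69% of all reads, and without them the pool had 62.4 CPM and the highest cell 1507 CPM. In the first of them the AT2 markers summed to 255766 CPM and in the second to 5454 CPM. Over all but 1 of the AT2 cells (those of 100000 reads or more) the correlation of Cyp4b1 with the AT1 markers was r = 0.253 and rho = -0.00999, so the linear measure and the rank measure differed. The part of AT1-type transcripts in the AT2 level was not tested further.

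Cyp2s1, a P450 of airway and skin epithelium that the aryl hydrocarbon receptor can induce, set ciliated cells apart most sharply. It ran over 389.6, 2652 and 8551 CPM in ciliated cells, over 0, 3.07 and 1106 CPM in Scgb1a1-TD club cells, and over 0, 0 and 4.66 CPM in Sftpc-TD AT2 cells. All 24 ciliated cells lay above the highest AT2 cell and 21 above the highest club cell. The pools had 2809 CPM in ciliated (Poisson interval 2787 to 2831), 62.4 CPM in club (60.9 to 64.01) and 0.281 CPM in AT2 cells (0.211 to 0.367). The log2 ratio was 5.47 for ciliated over club cells (pairs of plates 5.16 to 6.72) and 11.10 for ciliated over AT2 cells (10.7 to 11.5). The 2 ciliated cells rich in Scgb1a1 had 553 and 649 CPM, and without them the pool had 3057 CPM.

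Cyp2s1 was uneven among club cells. Of the Scgb1a1-TD club cells, 36 of 97 reached 10 CPM and 19 reached 100 CPM, and the 10 cells with the most Cyp2s1 reads held 69.4% of them. The cell at the top, at 1106 CPM, had only 4519 reads in all, with 2656 CPM of the 8 ciliated markers and 52445 CPM of Sftpc. The next had 844 CPM at 845581 reads and 3.55 CPM of the ciliated markers. After it came a cell at 632 CPM, with 3641 CPM of the ciliated markers and 151 CPM of Foxj1, and 1 at 399 CPM, with 3.11 CPM of them. The part of ciliated-type transcripts in the Cyp2s1 of club cells was not tested. In the 15 Tracer club cells the pool was 210 CPM on plate 1 and 13.1 CPM on plate 2, where Scgb1a1-TD club cells had 64.5 CPM. Tracer BASCs had 2.62 CPM, Scgb1a1-TD BASCs 1.51 CPM and Sftpc-TD BASCs 0 reads, under a limit of 0.239 CPM set by 3 reads. Antisense genes Gm45226 and Gm26707 overlap Cyp2s1, and the strand setting of the counting is not given in the sources used here, so their reads cannot be told apart from those of Cyp2s1.

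Cyp2a5, a coumarin and nicotine hydroxylase of mouse liver and nasal mucosa, was a low gene in the same 2 airway types. It ran over 0, 118.4 and 912 CPM in ciliated cells, over 0, 0 and 1036 CPM in Scgb1a1-TD club cells, and was at 0 reads in every AT2 cell of Sftpc-TD. Its pooled level was 199 CPM in ciliated (Poisson interval 193 to 205) and 45.4 CPM in club cells (44.1 to 46.7), a log2 ratio of 2.11. Over the AT2 cells the log2 ratio of CPM + 1 was 7.64 for ciliated and 5.54 for club cells. The 3-read limit of the AT2 cells was 0.0156 CPM over the group. Against that limit, which covers counting error only, the pooled level was 12741-fold in ciliated and 2907-fold in club cells. A single club cell held 29.8% of the club reads.

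Cyp2a5 was near 0 in BASCs and in the club cells of the Tracer. BASCs had 0.188 CPM in the Tracer and 0.101 CPM in Scgb1a1-TD, and 0 reads in Sftpc-TD. The 15 Tracer club cells had 0.276 CPM (4 reads), with 1 cell above 10 CPM, against 26 of 97 club cells in Scgb1a1-TD. On plate 2, which held both lines, the levels were 0.317 CPM in 8 Tracer club cells and 20 CPM in 22 Scgb1a1-TD club cells. Of the 50-base stretches in its exons, 37% also occur in other transcripts, 28.1% in Cyp2a4, which had at most 0.0690 CPM in any group of 5 or more cells. Reads from such stretches may have been lost or moved between the paralogs, so the Cyp2a5 levels are uncertain.

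Cyp2s1 reached 10 CPM in all 24 ciliated cells, 17 of which also had 10 CPM of Cyp2a5. Among the 97 club cells, 8 had both, 28 had Cyp2s1 alone, 18 had Cyp2a5 alone and 43 had neither. With cells thinned to 100000 reads, Cyp2a5 was seen in 70.8% of 24 ciliated cells (exact 95% interval 48.9 to 87.4%), 28.7% of 94 club cells (19.9 to 38.98%) and none of the AT2 cells, which allows a share of up to 2.03% by the limit of 3 cells and up to 2.46% by the exact interval. Unthinned, the ciliated and club shares were 79.2% and 36.1%.

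Cyp2b10, the phenobarbital-inducible P450 of mouse liver that the receptor Car (Nr1i3) controls, was present in all groups of 5 or more cells. Ciliated cells ran over 0, 1150 and 3556 CPM, Scgb1a1-TD club cells over 0, 68.6 and 1021 CPM and Sftpc-TD AT2 cells over 0, 163 and 5818 CPM. Of the 24 ciliated cells, 14 lay above the highest club cell. The pools were 1101 CPM in ciliated, 202 CPM in club and 513 CPM in AT2 cells. Cyp2b10 was the 1 member higher in Sftpc-TD AT2 cells than in Scgb1a1-TD club cells. The club over AT2 log2 ratio was -1.34 (pairs of plates -1.84 to -1.13). Without the 4 AT2 cells rich in AT1 markers, which held 2316 to 5818 CPM of Cyp2b10, that ratio was -0.99, under 2-fold. Within BASCs-Tracer the order was the reverse, with pools of 1163 CPM in 15 club cells and 131.15 CPM in 6 AT2 cells. In the contrast across lines, line and sub-type cannot be told apart.

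The ciliated level of Cyp2b10 stood over the AT2 level only narrowly. The log2 ratio was 1.10, with pairs of plates from 0.35 to 1.72. It was under 2-fold under median-of-ratios scaling (0.36), with totals that leave out mitochondrial and the top 10 genes (0.49), without plate 3 (0.91), without plate 5 (0.81) and on plate 4, the shared one, alone (0.35).

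Club cells of the 2 lines differed in Cyp2b10. The Tracer's 15 club cells ran over 4.59, 619 and 2309 CPM, against 0, 68.6 and 1021 CPM in Scgb1a1-TD club cells, and 6 of the 15 lay above the highest Scgb1a1-TD club cell. The pooled log2 ratio was 2.52 (pairs of plates 2.12 to 2.89). The Tracer club pool of 1163 CPM, of which 1 cell held 43.8% of the reads, lay slightly above the 1101 CPM of the ciliated cells. By median cell the order was the reverse, at 619 CPM against 1150 CPM in ciliated cells. On plate 2, which both lines share, Tracer club cells had 1298 CPM and Scgb1a1-TD club cells 175 CPM. The difference was thus present within 1 plate, while line and animal cannot be told apart. The markers of these groups differed too: AT1 markers summed to 3789 CPM in Tracer and 955 CPM in Scgb1a1-TD club cells, AT2 markers to 43864 and 27397 CPM, and club markers to 153038 and 292907 CPM in the same order. Their part in the contrast of lines was not tested.

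In BASCs, Cyp2b10 differed between plates and lines. Tracer BASCs had 194 CPM on plate 1 and 657 CPM on plate 2, with medians of 11.2 and 473 CPM. Scgb1a1-TD BASCs had 274 CPM in 5 cells on plate 2, 33.6 CPM on plate 3 and 37.7 CPM on plate 4, and Sftpc-TD BASCs had 426 CPM over 11 cells. Of the 5 Scgb1a1-TD BASCs on plate 2, 1 had 1322 CPM and the median cell 6.27 CPM, so that pool rests on 1 cell. The log2 ratio of Tracer BASCs over Scgb1a1-TD club cells was 0.86, and 1.69 without plate 1. The part of the plate in these values was not tested.

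Por, the electron donor, was the most even member. It ran over 0, 266 and 1103 CPM in ciliated cells, over 34.9, 743 and 2442 CPM in Scgb1a1-TD club cells, and over 0, 243 and 1048 CPM in Sftpc-TD AT2 cells. The pooled levels were 361 CPM in ciliated (Poisson interval 353 to 369), 816 CPM in club (811 to 822) and 289 CPM in AT2 cells (286 to 291). The pooled log2 ratio was 1.496 for club over AT2 cells, with pairs of plates from 1.46 to 1.57, and -1.18 for ciliated over club cells (-1.89 to -0.88). Ciliated and AT2 cells, at 361 and 289 CPM, lay within 2-fold. Tracer BASCs had 181 CPM, Scgb1a1-TD BASCs 134.3 CPM and Sftpc-TD BASCs 202 CPM, the lowest 3 of the 8 groups. Antisense genes Gm43091 and Gm16061 overlap Por. Within lines, BASCs over club cells gave a log2 ratio of -2.59 in Scgb1a1-TD and -1.74 in the Tracer.

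**Figure D2:**
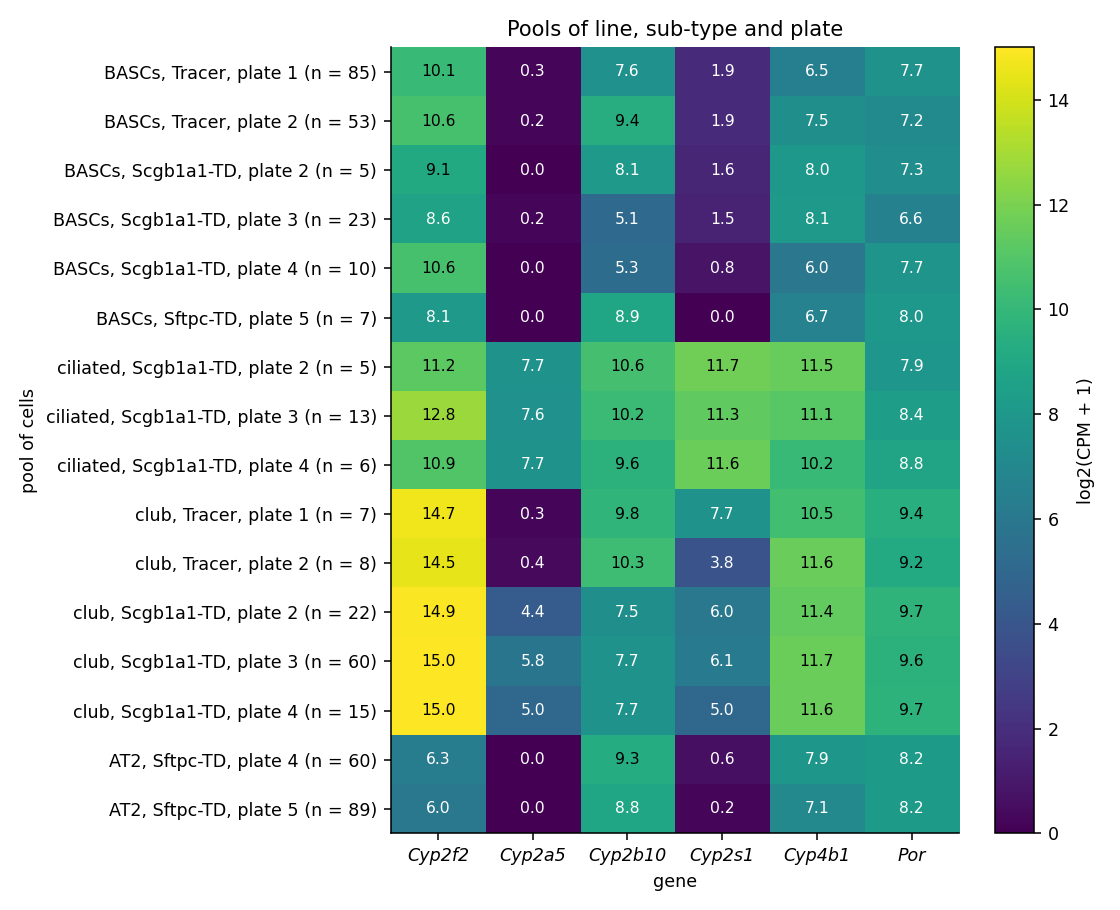
Pooled level of each gene, as log2 of CPM + 1, in the 16 pools of line, sub-type and plate with 5 or more cells. Cyp2f2 is highest in the 5 club pools, Cyp2s1 in the 3 ciliated pools, and Cyp2b10 differs between the plates of the Tracer BASCs.

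The members were then counted in 9 pairs of groups, calling a gene different at 2-fold or more of CPM + 1 where either group had 5 CPM. For club cells of Scgb1a1-TD over AT2 cells of Sftpc-TD, 5 of the 6 members were higher and Cyp2b10 was lower, where 15.8% of all 10794 genes were higher and 19.5% lower. For ciliated over club cells, 3 were higher (Cyp2s1, Cyp2b10, Cyp2a5) and 2 lower (Cyp2f2, Por), where 43% of genes (5160 of 12011) were higher and 14.9% lower, so that the count of higher members is close to that of genes at large. For ciliated over AT2 cells, 5 were higher and none lower, where 43.1% were higher and 17.8% lower. The median gene was shifted by 0.74 in log2 for ciliated over club cells and by 0.72 for ciliated over AT2 cells. Relative to that shift, under median-of-ratios scaling, the ciliated over club ratios were 4.72 for Cyp2s1, 1.68 for Cyp2b10, 1.36 for Cyp2a5, -1.44 for Cyp4b1, -1.93 for Por and -3.43 for Cyp2f2. The same 3 members stayed 2-fold higher, and Cyp4b1 joined the lower ones. Under that scaling the ciliated over AT2 ratio of Por was -0.42 against 0.32 by total reads, a change of side within the 2-fold band.

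BASCs were lower than club cells in nearly every member. Within Scgb1a1-TD all 6 members were lower in BASCs, where 17.2% of genes were higher and 24.7% lower. Within BASCs-Tracer all 5 measured members were lower and Cyp2a5 was under 5 CPM in both groups, where 31.8% of genes were higher and 21% lower. For Tracer BASCs over Scgb1a1-TD club cells 5 were lower and Cyp2b10 was within 2-fold, where 18.5% of genes were higher and 15.2% lower. These comparisons share groups and are not independent. By median cell instead of pool, the lower members were 4 within Scgb1a1-TD and 3 for Tracer BASCs over Scgb1a1-TD club cells, with Cyp2a5 and Cyp2s1 left out because their median cells held at most 3.07 CPM in these groups. The shares of all genes above are from pools and were not computed by median cell, so these 2 counts have no share to be read beside. Within BASCs-Tracer the Cyp2s1 ratio was -0.11 by median cell (1.12 CPM in BASCs and 1.29 CPM in club cells), against -4.51 by pool and -3.52 without the club cell with most of its group's reads.

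Against the AT2 cells of Sftpc-TD, 1 member passed 2-fold in pooled BASCs. For Tracer BASCs over Sftpc-TD AT2 cells only Cyp2f2, of 4 measured members, was higher and none lower, where 9.90% of genes were higher and 9.17% lower. The log2 ratio was -0.48 for Cyp2b10, -0.50 for Cyp4b1 and -0.67 for Por. Without the 4 AT2 cells rich in AT1 markers that of Cyp4b1 was 0.95. By median cell, though, Cyp4b1 was higher in Tracer BASCs, at 15.8 CPM against 1.91 CPM in AT2 cells, a log2 ratio of 2.53, and Por was lower, at -1.07. For BASCs over AT2 cells within Sftpc-TD only Cyp2f2 was higher (1.72), where 16.6% of genes were higher and 35.4% lower, and by median cell its ratio was 0.14. Without the 4 AT2 cells rich in AT1 markers, Cyp4b1 was also higher in Sftpc-TD BASCs, at a log2 ratio of 1.78 against 0.33 with them, and -0.76 without the BASC that held most of its group's Cyp4b1 reads. Within the Tracer, BASCs over the 6 AT2 cells gave log2 ratios of 3.21 for Cyp4b1 (pairs of plates 2.35 to 4.55), 1.49 for Cyp2b10 (-0.12 to 3.19), 1.19 for Cyp2f2 (0.301 to 3.61) and -0.787 for Por (-1.28 to -0.331). That pair was not among the 9, and its plates held 4 and 2 AT2 cells.

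For club cells of the Tracer over those of Scgb1a1-TD, Cyp2b10 was higher (2.52), Cyp2a5 lower (-5.18) and the other 4 members within 2-fold, where 21.1% of genes were higher and 29.1% lower. Cyp2f2 differed by -0.44, Cyp4b1 by -0.30 and Por by -0.43. The ratio of Cyp2s1 was 0.38 in all, -2.17 without plate 1 and 1.74 without plate 2. That gene's comparison thus changed side with the plate. It was -0.61 without the 1 Tracer club cell that held 53.3% of its group's Cyp2s1 reads, and that of Cyp4b1 was -1.0 without its top Tracer club cell.

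**Figure D3:**
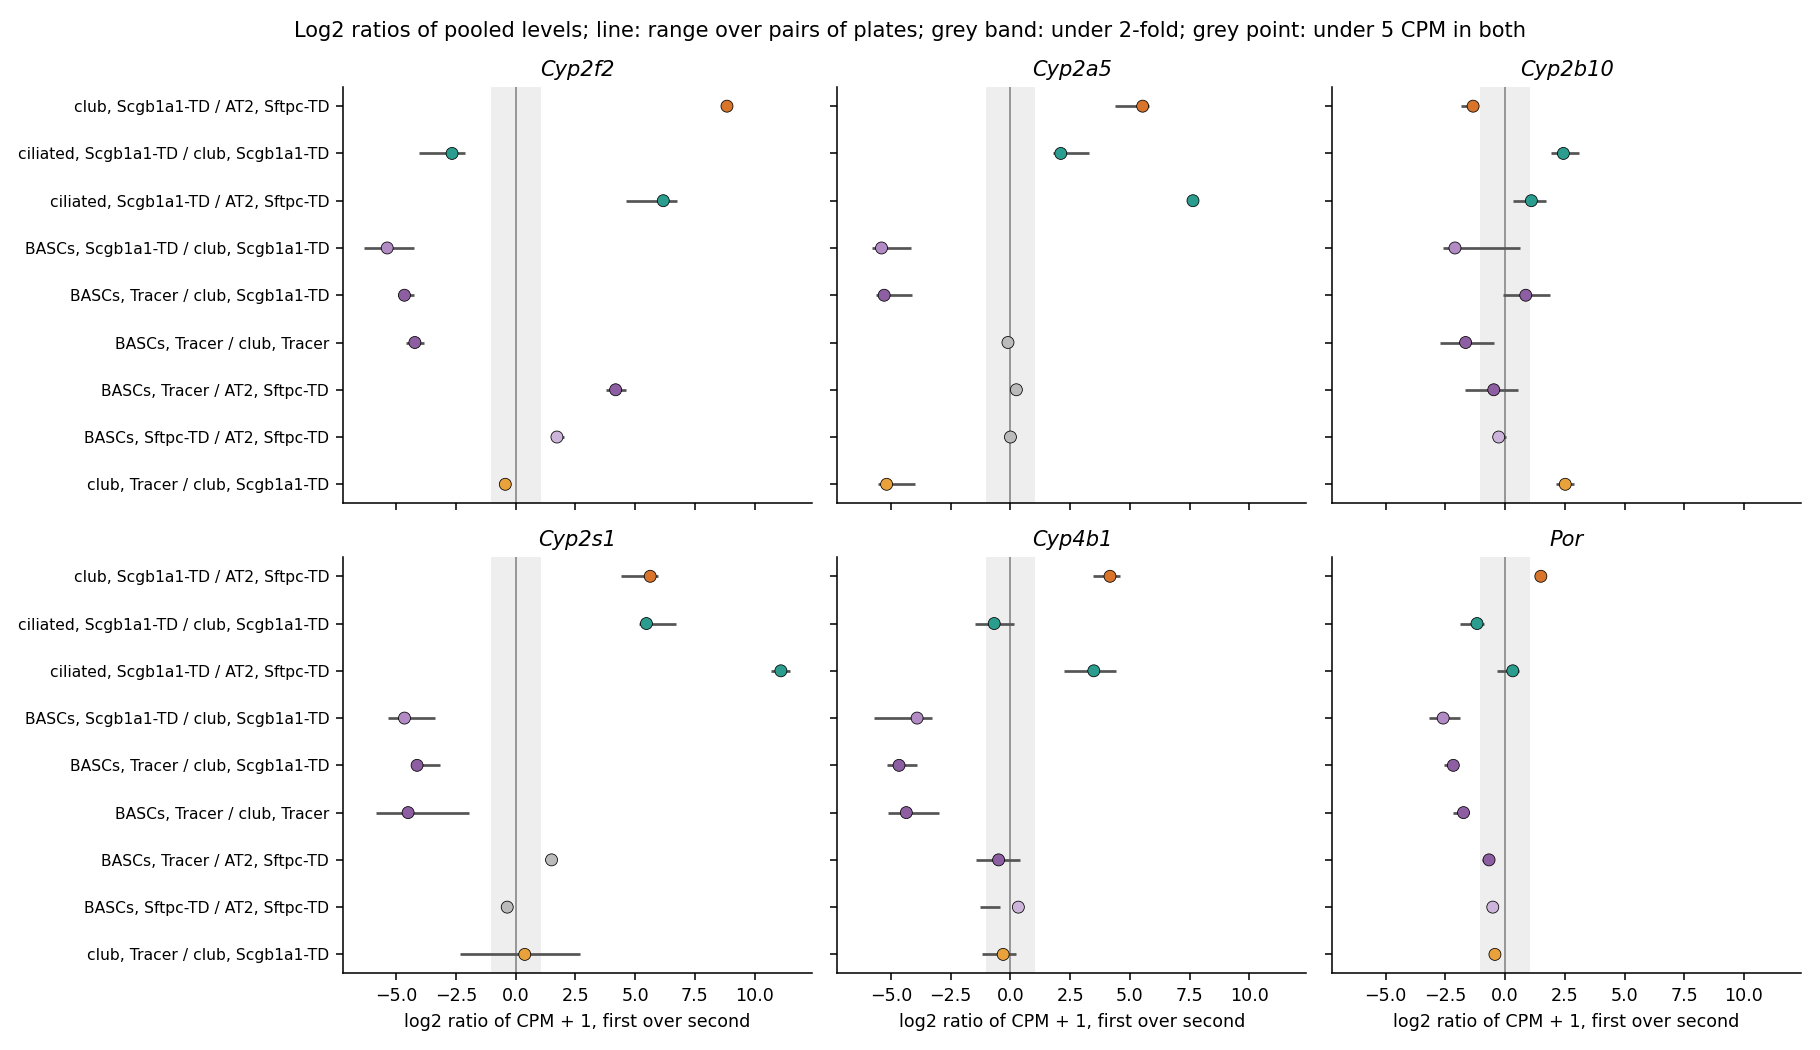
Log2 ratios of pooled CPM + 1 for each gene in 9 pairs, first group over second; points are pooled ratios, lines the range over pairs of plates with 5 or more cells, the grey band marks under 2-fold and grey points genes under 5 CPM in both groups. BASCs over club cells lie left of the band for Cyp2f2, Cyp4b1 and Por in all 3 such pairs. For Sftpc-TD BASCs over AT2 cells the points of Cyp4b1, Por and, narrowly, Cyp2f2 lie outside their lines, as 4 BASCs on plate 4 are in the pool only.

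Per length of exon, the 5 P450 transcripts outnumbered Por transcripts most in club cells. Reads per kb of the 5 together were 50.8-fold those of Por in ciliated cells, 19.1-fold in Tracer BASCs, 14.8-fold in Scgb1a1-TD BASCs, 8.21-fold in Sftpc-TD BASCs, 89.01-fold in Tracer club cells, 85.9-fold in Scgb1a1-TD club cells and 4.92-fold in Sftpc-TD AT2 cells. Without the 2 ciliated cells rich in Scgb1a1 the ratio was 41.9 in ciliated cells, and without the 4 AT2 cells rich in AT1 markers it was 3.53 in AT2 cells. The medians over cells kept this order for ciliated (72.8), Tracer BASCs (28.9), club (89.4) and Sftpc-TD AT2 cells (2.31), but not for all groups. The 6 Tracer AT2 cells were lowest by pool, at 4.42-fold. Their median of 12.3 lay above the 11.55 of the Sftpc-TD BASCs and the 2.31 of the Sftpc-TD AT2 cells. The P450 side varied far more between groups than Por did: 4553 CPM per kb in ciliated, 858 in Tracer BASCs, 17438 in Scgb1a1-TD club and 353 in AT2 cells, while Por had 89.7, 44.96, 203 and 71.8.

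The make-up of the 5 P450 transcripts also differed. Cyp2f2 made up 55.1% of their level per kb in ciliated cells, 73.3% in Tracer BASCs, 91.4% in Scgb1a1-TD club cells and 9.68% in Sftpc-TD AT2 cells. Ciliated cells had 18.9% Cyp4b1, 12.5% Cyp2s1, 11.5% Cyp2b10 and 2.11% Cyp2a5, and without the 2 cells rich in Scgb1a1 their Cyp2f2 share was 40.5%. In Sftpc-TD AT2 cells Cyp2b10 came first, at 68.8% (75.3% without the 4 cells rich in AT1 markers), and in Sftpc-TD BASCs too, at 49%. The 6 Tracer AT2 cells differed, with 80.3% Cyp2f2 and 18.1% Cyp2b10, and 1 of them held 54.4% of their Cyp2f2 reads. Cyp2b10 thus came first in the 2 groups of Sftpc-TD and not in AT2 cells of both lines. All 5 P450 genes reached 10 CPM at once in 17 of 24 ciliated cells and 7 of 97 club cells, and in no Tracer BASC or AT2 cell. As a share of all reads the 5 took 1.11% in ciliated cells, 0.177% in Tracer BASCs, 3.57% in club cells and 0.0754% in AT2 cells.

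**Figure D4:**
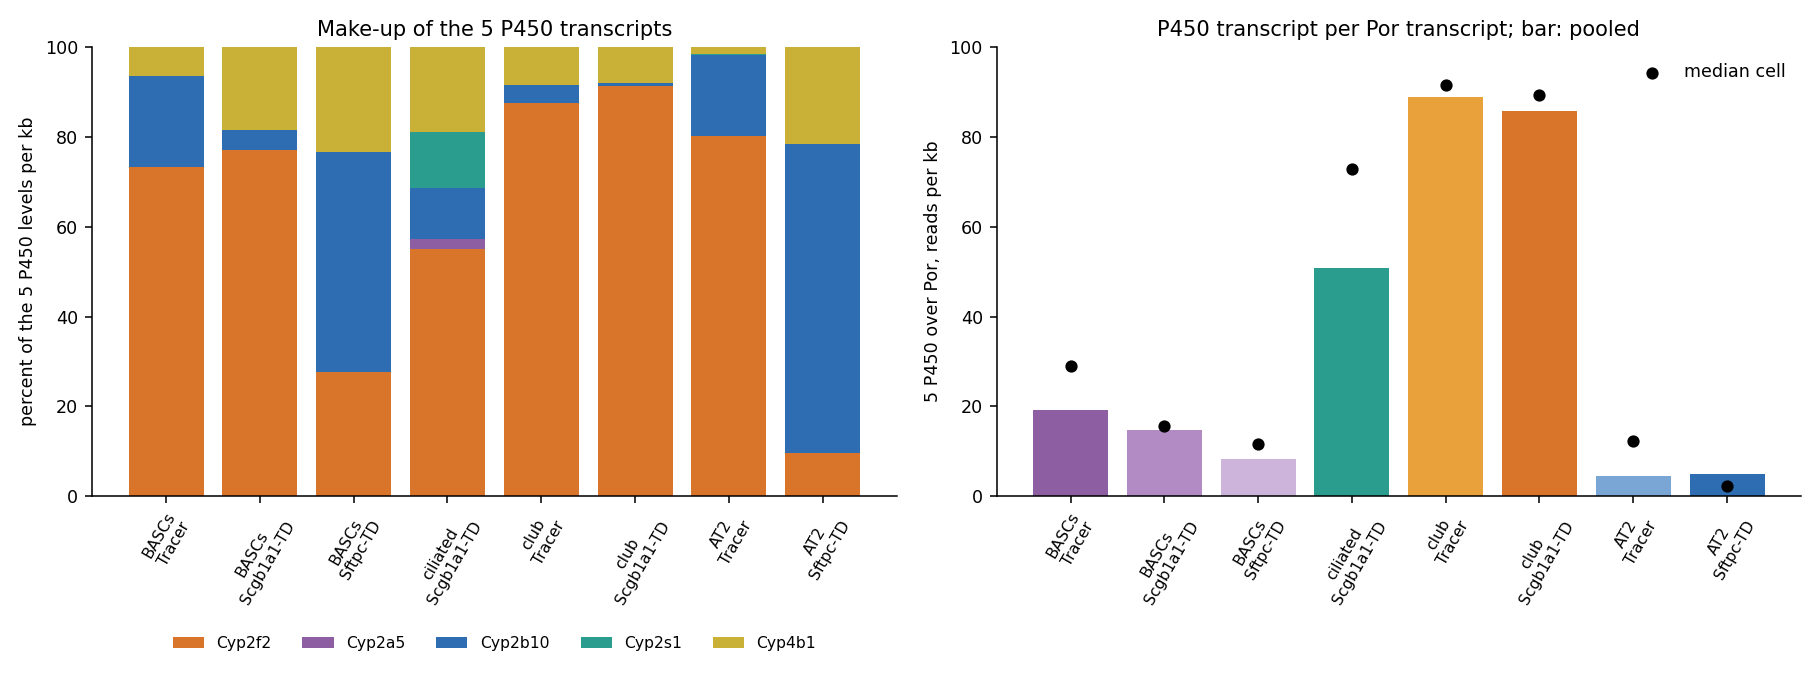
Left, share of each of the 5 P450 genes in their summed level per kb of exon, in percent, for 8 groups; right, summed P450 level per kb over that of Por, with bars for pools and points for the median cell. Cyp2f2 fills 91.4% of the Scgb1a1-TD club bar and Cyp2b10 68.8% of the Sftpc-TD AT2 bar, and the pooled ratio to Por is 85.9 and 4.92 in these groups. In the Tracer AT2 bar Cyp2f2 comes first, at 80.3%.

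Within groups, members were set against each other and against markers across cells of 100000 or more reads, as descriptions: cells of a group share line, plates and depth. In 94 Scgb1a1-TD club cells Cyp2f2 was correlated with Cyp4b1 (r = 0.749, rho = 0.655) and less with Por (r = 0.416, rho = 0.398), and had no such relation to Scgb1a1 (r = -0.0489). In BASCs the partner was another one. Cyp2f2 was correlated with Scgb1a1 in all but 5 of the Tracer BASCs (r = 0.749, rho = 0.739) and in 37 Scgb1a1-TD BASCs (r = 0.738, rho = 0.693), and in Tracer BASCs it was inversely correlated with Sftpc (r = -0.470, rho = -0.410). In the 24 ciliated cells Cyp2b10 and Cyp4b1 gave r = 0.682 and rho = 0.234, so the linear and the rank measure differed there too.

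**Figure D5:**
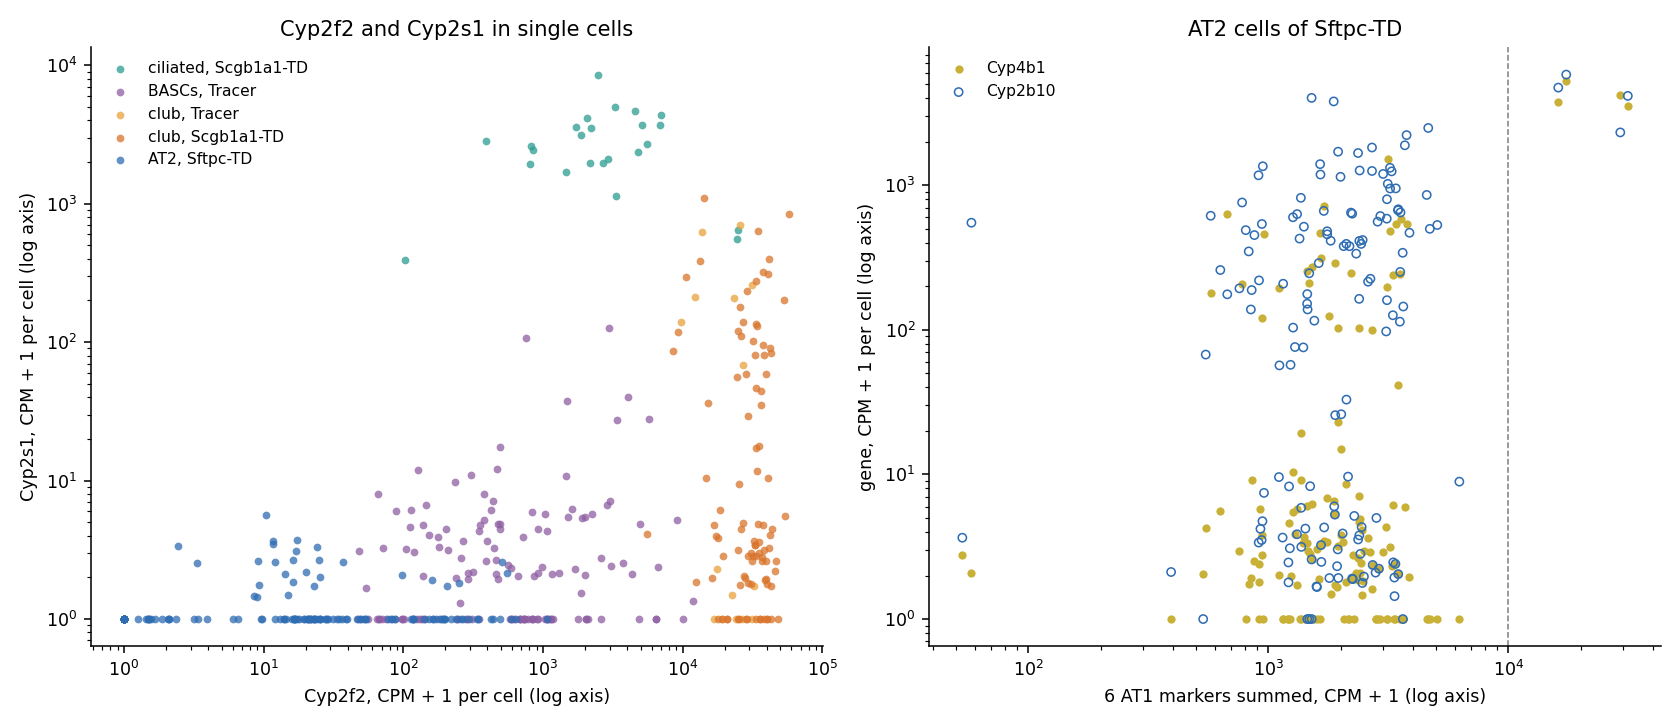
Left, Cyp2s1 against Cyp2f2 in single cells (CPM + 1, both axes log) for 5 groups; right, Cyp4b1 and Cyp2b10 against 6 summed AT1 markers in the AT2 cells of Sftpc-TD (CPM + 1, both axes log), with the dashed line at 10000 CPM. Of the 24 ciliated cells, 21 lie above every Scgb1a1-TD club cell in Cyp2s1 and 20 lie left of every such cell in Cyp2f2, while 2 have 24499 and 24974 CPM of Cyp2f2; the 4 AT2 cells right of the line have the 4 highest Cyp4b1 values.

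The genes whose level ran most like each member over the 16 pools of line, sub-type and plate were ranked by Pearson r of log2(CPM + 1) among 7836 genes; the pools share lines and plates. Cyp2f2 was most like Cldn10, a tight junction gene (r = 0.949), the secretoglobin Scgb3a2 (0.928), Gstm2, Gsto1 and Chad. Cyp4b1 was most like the retinaldehyde dehydrogenase Aldh1a1 (0.967), Gstm2-ps1, Gstm1, the carboxylesterase Ces1d and Pgrmc1 (0.933), and Por like Prdx6 (0.921), Cbr2, Dcxr, Gsta4 and Slc16a11. Cyp2s1 was most like the splicing factor Srsf10 (0.970), Tnn, Glipr1, Cit and Me2, and Cyp2a5 like Prom1 (0.958), Cyfip2, Fam171a1, Slc16a12 and Lrriq1. Cyp2b10 had the weakest likeness, with Gch1 (0.857), Ubb, Mta1, Lgals3 and Eno1. Among members, Cyp2a5 and Cyp2s1 gave r = 0.885, Cyp2f2 and Cyp4b1 0.783, and Cyp2b10 and Cyp2f2 0.109.

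The 5 P450 members made up most P450 reads: 97.2% in ciliated cells, 86.8% in Tracer BASCs, 98.3% in Scgb1a1-TD club cells and 68.6% in Sftpc-TD AT2 cells. Of 95 other P450 genes 46 had no read in any cell. For club over AT2 cells, where 15.8% of all genes were higher and 19.5% lower, 9 of the 15 measured others were higher and 1 lower, with a median log2 ratio of 1.24 where the median of all genes was -0.04. Cyp1b1, an estrogen and hydrocarbon hydroxylase, had 0.772 CPM in ciliated, 98.5 CPM in club and 0.109 CPM in AT2 cells. Cyp51, an enzyme of sterol synthesis, had 68.4, 43.1 and 85.1 CPM in the same groups, within 2-fold. Cyp4f15, of a family that hydroxylates fatty acids and leukotrienes, joined Cyp2a5 in the contrast of lines: it had 1.17 CPM in Tracer club cells and 122.6 CPM in Scgb1a1-TD club cells, and on the shared plate 2, 1.48 CPM in 8 Tracer and 130.4 CPM in 22 Scgb1a1-TD club cells.

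Of the 7 partners that pass electrons to P450 enzymes or bind them, 3 of 6 measured were higher in club than in AT2 cells and none lower, beside the same 15.8% and 19.5% of all genes, with a median log2 ratio of 1.19. Pgrmc1, a heme-binding partner of P450 enzymes, had 854 CPM in ciliated, 73.9 CPM in Tracer BASCs, 950 CPM in club and 49.6 CPM in AT2 cells, and cytochrome b5 (Cyb5a) had 717, 475, 1947 and 535 CPM. For Tracer BASCs over Scgb1a1-TD club cells 3 of the 7 partners were lower and none higher, where 15.2% of all genes were lower and 18.5% higher. Alas1 is the rate-setting enzyme of heme synthesis. It had 1797 CPM in ciliated, 257 CPM in Tracer BASCs, 1075 CPM in Scgb1a1-TD club and 192 CPM in AT2 cells. In Tracer club cells, whose Cyp2b10 was high, Alas1 had 2242 CPM, with 1012 CPM on plate 1 and 2893 CPM on plate 2. Cyp2b10 had 908 and 1298 CPM on these plates, in the same order. Only 2 of the 8 heme synthesis genes were 2-fold higher in club than in AT2 cells and none lower (median 0.24), and none of the 4 heme breakdown genes passed 2-fold there, against 15.8% of all genes higher and 19.5% lower.

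Of 10 receptors and regulators of xenobiotic response, 2 of 6 measured were higher and 2 lower in club than in AT2 cells, where 15.8% of all genes were higher and 19.5% lower, and the median was -0.06. The aryl hydrocarbon receptor gene Ahr had 61.2 CPM in ciliated, 42.1 CPM in Tracer BASCs, 92.8 CPM in club and 9.35 CPM in AT2 cells. For ciliated over club cells 4 of 7 measured were higher and none lower, where 43% of all genes were higher and 14.9% lower, with a median of 1.79 where that of all genes was 0.74. Of 12 conjugation and hydrolysis genes, 3 of 5 measured were higher and 1 lower in club than in AT2 cells (median 2.90), beside the 15.8% and 19.5% above. Among them were Ephx1, the microsomal epoxide hydrolase, at 406 CPM in ciliated, 539 CPM in club and 71.2 CPM in AT2 cells, and the quinone reductase Nqo1 at 31.9, 59.4 and 0.135 CPM. Of 6 lung transcription factors none was 2-fold higher and 2 were lower in club than in AT2 cells (median -0.09), beside 19.5% of all genes lower, with Nkx2-1 at 102.3, 118.8 and 295 CPM in ciliated, club and AT2 cells.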

How the data were processed

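Single tdTomato+ cells were sorted from lungs digested with collagenase, dispase and elastase, and full-length cDNA was made with SuperScript II, amplified with KAPA and turned into libraries with Nextera XT, per the labels' protocols. The authors deposited 1 table of raw read counts per gene and cell. HISAT2, HTSeq and GRCm38 are named in the submitters' processing notes; no source used here gives versions, annotation or strand setting. The protocols name no molecular identifiers, so amplified copies count as reads, and all intervals cover counting error only. The header has no name over the gene IDs, so the first name was taken for the first count column.

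Of 53379 gene IDs, 53274 were matched to GENCODE M21, and the 105 others held 0.00513% of reads. Counts were summed per line and sub-type and scaled to CPM; ratios are log2 of CPM + 1. The 480 cells are not replicates, so no p-value is given; a gene was called at 2-fold where either group had 5 CPM. Plates of 96 wells are from the labels' titles, and ranges use pools of at least 5 cells per plate. Shares of cells used thinning to 100000 reads, which left out 12 cells, and exact (Clopper-Pearson) 95% intervals; limits for 0 are 3 reads. Levels per kb use summed exon length. Promoters are from RefSeq (GRCm38.p6), for 6 of 6 members. Doublets were not called: the labels call each well a single cell. Some cells with another type's markers are given with their values, and not every such cell is listed. Named genes are the members, the 5 genes most like each over pools (50 CPM in at least 1 pool), and list genes with 50 CPM in ciliated, club, AT2 or Tracer BASC pools, up to 6 a list. Members and lists were chosen with earlier results of these data known. Alternatives were other scalings, the count minimum, 10 CPM added, means and medians over cells, leaving out plates, shared plates and other depths; 4 were added after the data were seen. The summing and call steps were tested on simulated counts. Tools were Python 3.11.15, numpy 2.4.6, pandas 2.3.3 and scipy 1.17.1.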

Additional observations from a re-analysis of the deposited data

Results flagged for a closer look

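Among the 6 AT2 cells of BASCs-Tracer, 1 cell stood far from the rest in Cyp2a5 (1.28 CPM) and 1 in Cyp2s1 (1.84 CPM), with the other 5 cells at 0 each time; each value is 1 read. With 5 cells at 0, any read in the remaining cell passes the limit used, so neither flag says more than that 1 cell had a read. Both values lie at the detection limit. The other 4 members had no cell that far from its neighbours.

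Sub-types with a single cell entered no comparison. The 1 ciliated cell of BASCs-Tracer had 5820 CPM of Cyp2f2, 1406 CPM of Cyp2b10, 984.7 CPM of Cyp2s1, 1309 CPM of Cyp4b1, 265.5 CPM of Por and no Cyp2a5 read. Its Cyp2s1 lay above that of every Tracer BASC, the highest of which had 125.5 CPM. Its 8 ciliated markers summed to 3561 CPM, within the 2264 to 17947 CPM of the ciliated cells of Scgb1a1-TD, while its Foxj1 was at 0, its Sftpc at 95578 CPM and its Scgb1a1 at 72979 CPM. The 1 AT2 cell of Scgb1a1-TD had 19.3 CPM of Cyp2f2, 285.8 CPM of Cyp2b10, 21.7 CPM of Por and no Cyp2a5 read.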

How the results depend on the processing

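No paired analysis was possible because the replicate numbers only name cells and no test was run. Of 435 planned recalculations of a member's log2 ratio, 374 moved by less than 1.5-fold, 61 moved by more and 0 reversed a called ratio. Of the 158 planned counts of members, 10 moved by more than 1.5 times. Of the ratios to Por 11 of 16 moved, 8 without length scaling and 3 by median cell, and 82 of 192 shares of cells moved with depth or the read minimum. The members lower in ciliated than in club cells were 3 instead of 2 under median-of-ratios scaling and with totals that leave out mitochondrial and the top 10 genes, through Cyp4b1. On shared plates 1 member was higher in Tracer BASCs than in Scgb1a1-TD club cells, and 2 were lower in Tracer than in Scgb1a1-TD club cells; by mean over cells 2 were higher there. Leaving out each plate in turn gave 0 to 1 members higher in Tracer BASCs than in Scgb1a1-TD club cells, 0 to 1 lower in Tracer BASCs than in AT2 cells, and 1 to 2 higher and 1 to 2 lower in Tracer than in Scgb1a1-TD club cells; Cyp2b10 and Cyp2s1 made most of these changes, with Cyp2b10 at -1.40 for Tracer BASCs over AT2 cells without plate 2 and at -0.98 for BASCs over club cells in the Tracer without plate 1. By median cell, chosen after seeing the data, 3 members were higher in club than in AT2 cells, 4 were lower in BASCs than in club cells of Scgb1a1-TD, 3 were lower in Tracer BASCs than in Scgb1a1-TD club cells, and 2 were higher and 1 lower in Tracer BASCs than in AT2 cells. Without the AT2 cells rich in AT1 markers, also chosen afterwards, 0 members were lower in club than in AT2 cells and 2 were higher in Sftpc-TD BASCs than in AT2 cells. The cause of these changes was not tested. Shares of all genes were computed only for pools of all cells of a group scaled to total reads, so the member counts under these alternatives have no such share beside them. Shares of cells depend on depth: Cyp4b1 was seen in 35.1% of AT2 cells thinned to 100000 reads and 75.2% unthinned. Groups of 6 to 15 cells rest on single cells: 1 cell held 51.8% of the Cyp4b1 reads of the Tracer club cells.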

Other observations

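Other genes of the Cyp2 stretch on chromosome 7, named after their values were seen, had low levels: Cyp2g1 had 36.3 CPM in ciliated and 1.39 CPM in Scgb1a1-TD club cells, and Cyp2b19 had 15.3 CPM in ciliated and 3.32 CPM in Scgb1a1-TD club cells. Cyp2b9 had no read in the 8 groups of 5 or more cells.

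Sult1d1, a sulfotransferase, had 0.276 CPM in Tracer club cells, with 1 of 15 cells at 10 CPM or more, and 77.1 CPM in Scgb1a1-TD club cells, with 25 of 97. On plate 2 alone it had 0 CPM in Tracer and 11.9 CPM in Scgb1a1-TD club cells. Cyp1b1 had 58.96 CPM in Tracer and 98.5 CPM in Scgb1a1-TD club cells.

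Cyp1a1, the classical target of the aryl hydrocarbon receptor and also named after its values were seen, had 76.2 CPM in Scgb1a1-TD BASCs, 3.41 CPM in club cells of that line and 2.28 CPM in Sftpc-TD AT2 cells. The highest of those BASCs had 2726 CPM, and 4 of 38 had a read.

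The club cell with the least Cyp2f2, 5549 CPM, had the highest Scgb1a1 of its group, 465043 CPM, with 571 CPM of Cyp4b1 and 92.1 CPM of Por.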
